A study of Mus musculus with 6 samples.

Results

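The major urinary protein (Mup) genes encode small secreted lipocalins, barrel-shaped carriers that hold a hydrophobic ligand. Rodent liver makes them in quantity, releases them into the blood and passes them into urine, where they carry volatile pheromones and act as scent signals themselves. In mouse liver they are known as male-biased genes whose transcription depends on the pulsed secretion of growth hormone, through its receptor and the transcription factor STAT5B. The 7 genes described here (Mup3, Mup7, Mup11, Mup15, Mup17, Mup20 and Mup21) were found by symbol among 39179 genes in each of 6 liver libraries. All 7 were present, and all 7 passed the filter on low counts.

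NASH livers, 3 libraries, and livers with isolated steatosis, also 3, came from obese C57BL/6J mice (strain label C57BL/6). Every mouse had eaten a high-fat diet with 60% of its energy as fat, starting at 5 weeks of age and lasting 21 weeks, and no genotype or drug separates the groups. The classes rest on haematoxylin and eosin staining of the liver, so NASH (steatohepatitis, fat with inflammation and injury) and isolated steatosis (fat alone) are histological grades of mice on 1 diet. No lean liver was analysed here. That each library comes from a mouse of its own is only implied by the labels, and p-values measure the spread between these libraries. Sex is not labelled. Xist, the transcript of the inactive X chromosome, had 0, 1 and 0 counts in NASH and 0, 0 and 1 in steatosis, while the Y-linked gene Eif2s3y had 314, 274 and 190 counts in NASH and 321, 291 and 524 in steatosis.

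All 7 genes lie on the minus strand of chromosome 4 and are annotated as protein coding (GENCODE M21, GRCm38). In chromosome order they are Mup7 (ENSMUSG00000073842, chr4:60066469-60070475), Mup11 (ENSMUSG00000073834, chr4:60658466-60662411), Mup15 (ENSMUSG00000096674, chr4:61435790-61439743), Mup17 (ENSMUSG00000096688, chr4:61591929-61595871), Mup20 (ENSMUSG00000078672, chr4:62050234-62054158), Mup3 (ENSMUSG00000066154, chr4:62083476-62087342) and Mup21 (ENSMUSG00000066153, chr4:62147932-62150863). Mup7, Mup11, Mup15 and Mup17 belong to the block of near-identical central copies, and any pair of them matched at 98.3% to 98.9% of aligned coding bases. Mup20, which encodes the male pheromone darcin, matched these 4 at 90.4% to 91.3%. Mup3 and Mup21 are diverged copies that matched the 4 at 83.1% to 85.0% and each other at 95.4%. A stretch of 60 coding bases in exon 3 is printed in transcript direction, with capitals for bases that differ from Mup17. Being shorter than a read, the stretch does not show how far a read can tell the copies apart. Nor is it typical, as Mup3, Mup20 and Mup21 differ from Mup17 more densely there than over all aligned coding bases. The stretch has 20 positions where the 7 genes differ. It covers chr4:61594365-61594424 in Mup17, chr4:60068915-60068974 in Mup7, chr4:60660902-60660961 in Mup11, chr4:61438237-61438296 in Mup15, chr4:62052650-62052709 in Mup20, chr4:62085973-62086032 in Mup3 and chr4:62149368-62149427 in Mup21.
Mup17: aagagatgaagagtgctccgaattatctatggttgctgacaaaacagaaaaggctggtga
Mup7: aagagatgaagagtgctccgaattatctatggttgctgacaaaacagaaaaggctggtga
Mup11: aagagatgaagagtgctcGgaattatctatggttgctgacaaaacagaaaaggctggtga
Mup15: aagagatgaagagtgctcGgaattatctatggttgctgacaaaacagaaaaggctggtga
Mup20: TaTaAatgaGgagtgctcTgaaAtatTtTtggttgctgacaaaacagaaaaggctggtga
Mup3: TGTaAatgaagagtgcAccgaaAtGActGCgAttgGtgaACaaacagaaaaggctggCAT
Mup21: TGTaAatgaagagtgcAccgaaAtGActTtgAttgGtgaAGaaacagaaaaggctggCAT
Within this stretch Mup7 equals Mup17, and Mup11 and Mup15 carry the same single difference. Mup20 differs from Mup17 at 8 bases, Mup21 at 16 and Mup3 at 17.

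Counting by HTSeq is per gene, and how reads that match several genes were treated is not given in the sources used here. Every 150-base window of the annotated transcripts was therefore compared with all other transcripts, 150 bases being the length of a read. Mup3 and Mup21 had no window in common with another gene, with 100% of windows found there alone. For Mup20 the unshared part was 68.9%, and the rest was shared with the pseudogene Mup-ps19. Mup17 had 59.6% of windows to itself and shared most with Mup13, at 18.6%. Mup7 had 32.9% to itself, and Mup1 held 44.9% of its windows. Mup11 had 30.6%, and Mup2 held 53.8% of its windows. Mup15 had 9.28%, and Mup1 and Mup12 each held 64.2% of its windows. No gene outside the Mup family held any of them, and none of the 7 shares exon positions with another annotated gene. Mup3 and Mup21 therefore have sequence of their own at this length, and Mup17 and Mup20 mostly so. Windows were matched exactly, and a share of windows is not a share of counts. Mup13 had 8858, 6658 and 10601 counts in steatosis, against 2068, 1225 and 1525 for Mup17. In NASH the counts were 6079, 5472 and 6966 for Mup13 and 3235, 2178 and 7367 for Mup17. How many Mup17 counts came from shared windows was not tested. Values of Mup7, Mup11, Mup15 and Mup17 are uncertain as single-copy values.

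**Figure D1:**
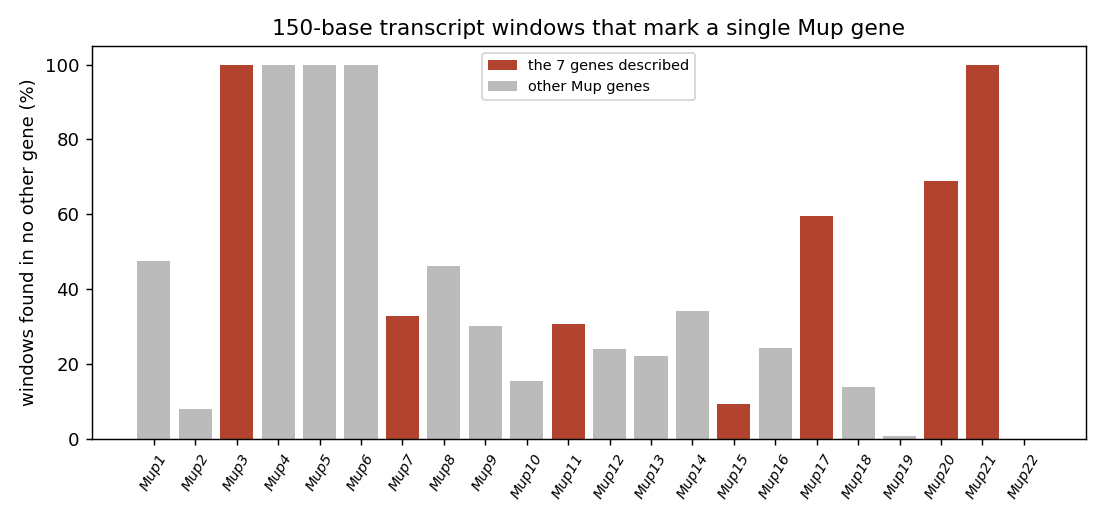
Bars give, for each annotated Mup gene, the percentage of 150-base transcript windows found in no other gene, with the 7 genes described here in red and the other Mup genes in grey. Mup3 and Mup21 stand at 100%, Mup20 at 68.9%, Mup17 at 59.6%, and Mup7, Mup11 and Mup15 at 32.9% or less, while Mup22, at 0%, was not analysed here.

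Total gene counts were 13909238 to 17577354 per library in NASH and 14883514 to 18002095 in steatosis. Mitochondrially encoded genes took 62.0% to 83.9% of counts in NASH and 68.3% to 77.9% in steatosis. At Lars2, Gm26917, Gm23935 and Gm42418, 4 loci that resemble rRNA, lay 22.3% of the counts of NASH 3 and 8.96% of those of steatosis 2, against 1.06% or less elsewhere. Other genes were left with 2185922 to 2719869 counts in NASH and 3378730 to 5149189 in steatosis. NASH 3 stands apart in this respect and is also the library with the highest Mup levels, so results are given with and without it. The part of rRNA-like reads in the Mup values was not tested.

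The comparison asks whether Mup expression differs between the histological classes. Mean levels of 6 of the 7 genes were higher in NASH than in steatosis, most of all for Mup17, but 0 of 7 passed edgeR's quasi-likelihood test at a Benjamini-Hochberg adjusted p under 0.05. Over all 11375 tested genes 4.82% passed, 1.49% as higher and 3.33% as lower in NASH. At an unadjusted p under 0.05 stood 3 of the 7 (Mup3, Mup11 and Mup17), where 23.2% of all tested genes did. DESeq2 called 0 of 7 as well, beside 851 of 19790 genes, and limma-voom 0 of 7, beside 528 of 11375. At an unadjusted p under 0.05 stood 4 of the 7 with DESeq2 and 2 with limma-voom. The share of all genes at that limit was not worked out for these 2 methods. The groups did not overlap for Mup3 and Mup17, both higher in NASH, which is 2 of 7 where 29.3% of all tested genes did not overlap, that is 13.1% higher and 16.2% lower in NASH. NASH 3 was the highest of the 6 libraries for all 7 genes, and 16.7% of all tested genes had their highest value there. Levels below are CPM (counts scaled to a common library size after TMM), and errors are SD over 3 libraries.

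Among the central copies, Mup17 had the largest difference. Its level was 225, 146 and 669 CPM in NASH 1, 2 and 3, against 127, 73.4 and 56.6 CPM in steatosis 1, 2 and 3. Each NASH library was above each steatosis library, the nearest being NASH 2 and steatosis 1. The means were 346 ± 282 CPM in NASH and 85.8 ± 37.0 CPM in steatosis, a log2 fold change of 2.01 (SE 0.53) with an adjusted p of 0.0568 by edgeR. Without NASH 3 the log2 fold change was 1.12, with an adjusted p of 0.130. Without NASH 2 it was 2.40 and passed, at 0.0401. Mup13, which shares most windows with Mup17, had a log2 fold change of 0.09 (adjusted p = 0.890 by edgeR).

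Mup11 varied most within NASH. It stood at 302, 233 and 1444 CPM in NASH and at 263, 258 and 140 CPM in steatosis. NASH 3 held 5.40 times the mean of the other NASH libraries, while NASH 2 lay below the levels of steatosis 1 and 2. The means of 660 ± 680 and 221 ± 69.7 CPM gave a log2 fold change of 1.58 (SE 0.61, adjusted p = 0.154), which was 0.29 without NASH 3. Mup2 and Mup14, which share most windows with Mup11, had log2 fold changes of 0.05 and 0.09.

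Mup7 and Mup15 moved as a pair across libraries. Mup7 had 261, 213 and 736 CPM in NASH, against 273, 181 and 170 CPM in steatosis. Mup15 had 246, 202 and 693 CPM in NASH, against 281, 185 and 169 CPM in steatosis. In both genes NASH 3 was about equally far above the rest, at 3.10 and 3.09 times the mean of NASH 1 and 2, and NASH 1 lay below steatosis 1. The log2 fold changes were 0.95 (SE 0.44, adjusted p = 0.224) for Mup7 and 0.85 (SE 0.44, adjusted p = 0.279) for Mup15. Leaving out NASH 3 gave 0.20 for Mup7 and 0.09 for Mup15. The counts of the pair differed by no more than a factor of 1.06 in any library. Other copies also had nearly equal counts: Mup2, Mup10, Mup13 and Mup14 lay within a factor of 1.06 of each other in every library, and Mup1, Mup8 and Mup19 within 1.11. Mup19 had 0.765% of windows to itself and still 3031 to 7010 counts in NASH and 3717 to 5671 in steatosis, although nearly all of its sequence is shared.

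Mup20 alone had no higher mean in NASH. Its level was 129, 221 and 373 CPM in NASH, against 262, 240 and 229 CPM in steatosis. The NASH values lay on both sides of the narrow steatosis range, with NASH 1 and NASH 2 below it and NASH 3 above. The means were 241 ± 123 CPM in NASH and 244 ± 16.9 CPM in steatosis (log2 fold change -0.02, SE 0.34, adjusted p = 0.984), and the sign turned under other scalings of the libraries. Without NASH 3 the log2 fold change was -0.47. Mup-ps19, the pseudogene that shares windows with Mup20, had 343 counts in all in NASH and 286 in steatosis, small beside 9265 and 14427 counts of Mup20.

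Mup3 had 372, 458 and 720 CPM in NASH, against 367, 333 and 263 CPM in steatosis. The groups did not overlap, although NASH 1 and steatosis 1 were nearly equal. The means were 517 ± 181 and 321 ± 52.8 CPM, with a log2 fold change of 0.69 (SE 0.30, adjusted p = 0.196) that was 0.38 without NASH 3. Mup21 was low throughout, at 37, 76 and 80 counts in NASH and 56, 51 and 72 counts in steatosis. These counts are 2.57, 5.09 and 7.26 CPM in NASH, against 3.45, 3.06 and 2.67 CPM in steatosis. NASH 1 was the lowest library and NASH 2 and NASH 3 were the highest, so the groups overlap (log2 fold change 0.69, SE 0.34, adjusted p = 0.245).

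**Figure D2:**
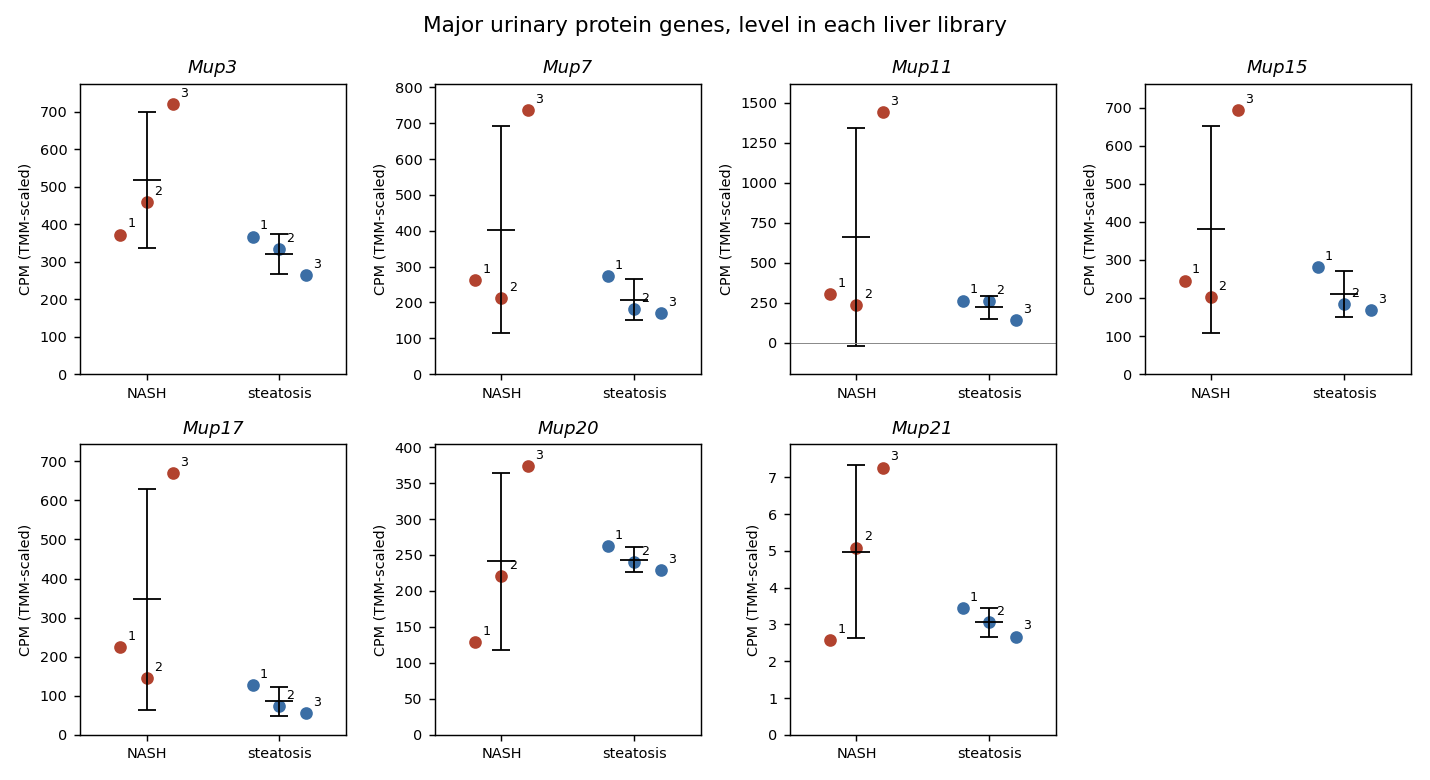
Points give the level of each gene in each library in TMM-scaled CPM, NASH in red and steatosis in blue with the replicate number beside each point, and bars give the mean and SD of 3 libraries. Axes differ between genes, and NASH 3 is the highest point in all 7 panels, up to 1444 CPM for Mup11.

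Spread within NASH was wider than within steatosis in all 7 genes. The coefficient of variation was 35.1% (Mup3) to 103% (Mup11) in NASH and 6.93% (Mup20) to 43.1% (Mup17) in steatosis. NASH 3 held between 1.73 times (Mup3) and 5.40 times (Mup11) the mean of NASH 1 and 2. The median log2 fold change of the 7 genes was 0.85, beside 0.01 over all tested genes, and it was 0.29 without NASH 3. Mup17, at 1.12, and Mup20, at -0.47, were then the ends of the range.

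**Figure D3:**
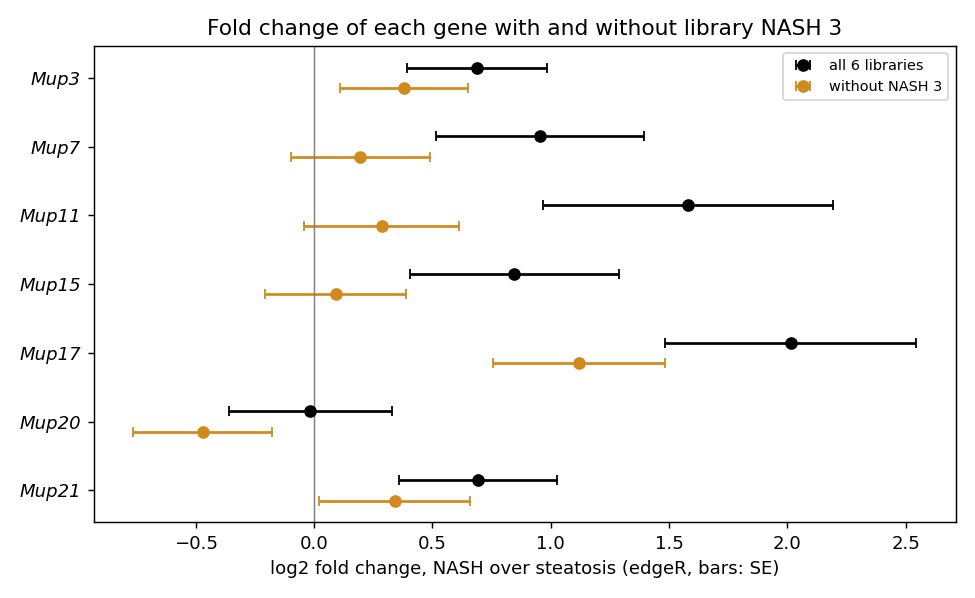
Points give the edgeR log2 fold change of each gene, NASH over steatosis, with bars of 1 SE, over all 6 libraries in black and without NASH 3 in orange. All 7 values are lower without NASH 3, and Mup17 stays the highest at 1.12.

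Per kilobase of exon, the order of mean levels in NASH was Mup3 (484 ± 170 CPM per kb), Mup11 (419 ± 432), Mup15 (411 ± 294), Mup7 (390 ± 280), Mup17 (374 ± 304), Mup20 (260 ± 133) and Mup21 (7.35 ± 3.47). In steatosis the order was Mup3 (300 ± 49.4 CPM per kb), Mup20 (263 ± 18.2), Mup15 (229 ± 65.7), Mup7 (201 ± 54.7), Mup11 (140 ± 44.2), Mup17 (92.6 ± 39.9) and Mup21 (4.52 ± 0.575). Neighbours in the NASH order above Mup21 lay within 1 SD of each other. In steatosis the neighbouring means above Mup21 differed by less than the larger SD of the pair, except that Mup7 and Mup11, and Mup11 and Mup17, differed by slightly more. Mup21 stood far below the rest in both groups. Exon length here covers all annotated transcripts of a gene, 1576 bases for Mup11 against 925 for Mup15, though their coding lengths are 543 and 540 bases. The order therefore depends on which transcripts are annotated. In CPM without this division, Mup11 had the highest mean in NASH (660). In steatosis it lay above Mup15 and Mup7 (221 against 211 and 208 CPM).

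For Mup17 and Mup20, 2 of the 7 genes, the share of the Mup counts did not overlap between the groups. In CPM, 29.3% of all tested genes did not overlap, and no such figure was made for shares. Shares within a library depend on each other, so a rise in 1 gene lowers the others. Mup17 made up 14.6%, 9.87% and 14.4% of the counts of the 7 genes in NASH, against 8.08%, 5.77% and 5.49% in steatosis. Mup20 made up 8.38%, 14.96% and 8.04% in NASH, against 16.6%, 18.8% and 22.2% in steatosis. The Mup17 share was higher and the Mup20 share lower in every NASH library. The means were 13.0% ± 2.68 in NASH and 6.45% ± 1.42 in steatosis for Mup17, and 10.5% ± 3.90 in NASH and 19.2% ± 2.82 in steatosis for Mup20. A ratio of genes within a library does not depend on its depth or scaling. Mup17 counts over Mup15 counts were 0.915, 0.721 and 0.965 in NASH, against 0.453, 0.398 and 0.335 in steatosis. Mup20 counts over Mup3 counts were 0.346, 0.483 and 0.518 in NASH, against 0.714, 0.721 and 0.870 in steatosis. In both ratios the NASH libraries are apart from the steatosis libraries. These ratios were picked after the values had been seen, so no test was made of them. They show unequal change between 2 rows of counts but not which row moved. Mup15 has 9.28% of windows to itself, so its row may hold reads of other copies, and the ratio to Mup17 may not compare 2 single genes. The share of Mup11 was 19.6%, 15.7% and 31.1% in NASH, against 16.7%, 20.3% and 13.6% in steatosis, and overlapped.

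**Figure D4:**
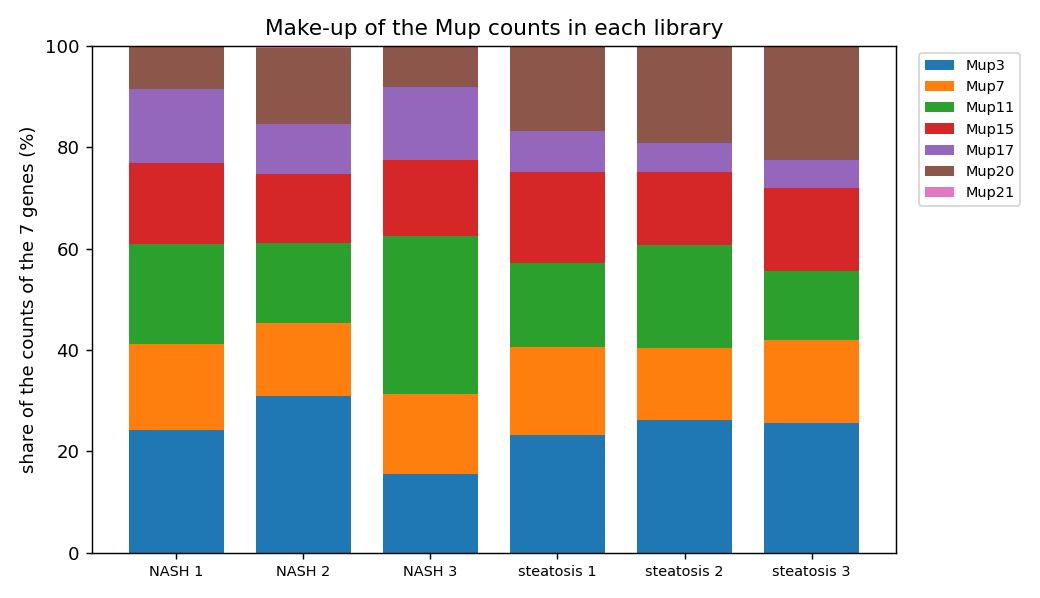
Stacked bars give the percentage of the counts of the 7 genes that fell on each gene in each library, the NASH libraries left of the steatosis libraries. Mup17 takes 9.87% to 14.6% in NASH and 5.49% to 8.08% in steatosis, and Mup20 takes 8.04% to 14.96% in NASH and 16.6% to 22.2% in steatosis.

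Summed over the 7 genes, counts were 22131, 22065 and 51134 in NASH and 25597, 21242 and 27777 in steatosis. Relative to counts outside mitochondrial genes and rRNA-like loci, these sums were 0.817%, 0.811% and 2.34% in NASH, against 0.712%, 0.629% and 0.539% in steatosis. The means were 1.32% ± 0.880 in NASH and 0.627% ± 0.0862 in steatosis, and the log2 ratio of means was 1.08, or 0.38 without NASH 3. As a percentage of all counts the sums were 0.140%, 0.126% and 0.368% in NASH, against 0.152%, 0.143% and 0.154% in steatosis, so that NASH 1 and NASH 2 then lay below all steatosis values. All 21 Mup genes in the files together held 2.33%, 2.07% and 4.87% of counts outside those loci in NASH, against 2.30%, 1.87% and 1.82% in steatosis. If reads common to several copies were counted at each, the sums count them more than once.

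The other Mup genes give the family context. Of 14 further Mup genes in the files, Mup4, Mup5 and Mup6 had 0 counts in all 6 libraries, where 3 counts would be 0.111 to 0.272 CPM. Of the remaining 11, 0 were called by edgeR and 0 had an unadjusted p under 0.05, and their log2 fold changes ran from 0.04 to 0.58 with a median of 0.43. Each of these 11 was highest in NASH 3, as the 7 were, where 16.7% of all tested genes were. Mup12, for example, had 178, 134 and 356 CPM in NASH, against 201, 122 and 124 CPM in steatosis. Of 27 Mup pseudogenes 12 had 0 counts throughout and 7 were tested, with 0 called. Mup-ps16 had the lowest log2 fold change among them, at -1.16 (adjusted p = 0.115), with 6.53, 7.90 and 2.54 CPM in NASH, against 16.6, 14.98 and 7.12 CPM in steatosis.

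RefSeq promoter sequences (GRCm38.p6) were matched for 6 of the 7 genes, all but Mup20. The 100 bases shown here lie upstream of the annotated starts and are printed to show how far the copies match there. Each stretch was set to end at a short sequence common to all 6 promoters, in which only 1 position may differ. Its last bases therefore match by choice, and its distance from the annotated start differs between genes. Capitals mark bases that differ from Mup17, and coordinates are chr4:61595969-61596068 for Mup17, chr4:60662509-60662608 for Mup11, chr4:60070483-60070582 for Mup7, chr4:62087406-62087505 for Mup3 and chr4:62150924-62151023 for Mup21, all on the minus strand.
Mup17: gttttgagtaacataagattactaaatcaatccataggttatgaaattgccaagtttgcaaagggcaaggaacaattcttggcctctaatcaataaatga
Mup11: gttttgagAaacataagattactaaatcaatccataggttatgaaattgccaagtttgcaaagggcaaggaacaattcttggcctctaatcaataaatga
Mup7: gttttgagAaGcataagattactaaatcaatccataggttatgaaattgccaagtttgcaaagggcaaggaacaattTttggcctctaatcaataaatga
Mup3: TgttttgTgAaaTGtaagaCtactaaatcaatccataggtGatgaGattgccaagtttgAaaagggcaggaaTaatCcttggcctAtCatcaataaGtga
Mup21: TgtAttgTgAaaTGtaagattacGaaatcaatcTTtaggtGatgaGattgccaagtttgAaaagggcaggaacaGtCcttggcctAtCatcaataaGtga
Mup15 (chr4:61439839-61439938) equals Mup17 in this stretch, and the pair had 0 mismatches over 247 aligned upstream bases, while their log2 fold changes were 0.85 (SE 0.44) and 2.01 (SE 0.53). Neither gene was called, the difference between them was not tested, and Mup15 has 9.28% of windows to itself. By these capitals Mup11 differs from Mup17 at 1 base, Mup7 at 3, Mup3 at 14 and Mup21 at 17. The capitals come from a gapped pairwise alignment, in which an extra base is marked and a missing base is not. The lines of Mup3 and Mup21 therefore do not match the Mup17 line position by position. The STAT5 motif TTCNNNGAA was in 0 of 6 of these promoters (250 upstream bases, both strands) and in 7.02% of 32851 promoters. The C/EBP motif TTGCNNAA was in 0 of 6 and in 9.56%.

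Genes of the growth hormone pathway did not pass the test. Of 14 tested genes of growth hormone and STAT5 signalling 0 were called, with a median log2 fold change of -0.06. Ghr, the growth hormone receptor, had 58.5, 36.8 and 43.0 CPM in NASH, against 76.6, 61.6 and 53.9 CPM in steatosis (adjusted p = 0.278 by edgeR). Stat5b had a log2 fold change of 0.01 (adjusted p = 0.988). Among 17 tested regulators of Mup or sex-biased transcription, 0 rose and 2 fell. Nr1i3, the xenobiotic receptor CAR, had a log2 fold change of -2.35 (adjusted p = 0.00554) and passed in each of 6 fits that left out 1 library. Zhx2, which in mouse liver regulates Mup genes, had -0.14, and Hnf4a, a hepatocyte master regulator, had 0.03. Neither was called.

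Other male-biased genes were mixed. Of 21 tested, 3 rose in NASH and 1 fell, with a median log2 fold change of 0.28. The 3 were C6, a complement component (1.17, adjusted p = 0.0314), Hsd3b5, a steroid dehydrogenase (4.56, adjusted p = 0.0448), and Selenbp2, a selenium-binding protein (2.43, adjusted p = 0.0275), and Ces2e, a carboxylesterase, fell (-0.99, adjusted p = 0.0181). Hsd3b5 had 7.71, 0.201 and 13.9 CPM in NASH, against 0.308, 0.599 and 0.0742 CPM in steatosis, and NASH 2 overlapped steatosis. Each of these 4 calls was lost in at least 4 of the 6 fits without 1 library. Of 15 tested female-biased genes 0 rose and 7 fell, with a median of -1.80. The 7 were Fmo2, a monooxygenase, Cyp4a10 and Cyp4a14, fatty acid hydroxylases, Acot3, an acyl-CoA thioesterase, Cyp2a22, Cyp2b13 and Atp6v0d2, a proton pump subunit. Cyp4a10, Cyp4a14 and Acot3 are also known targets of the fatty acid receptor PPAR alpha. Fmo2 and Cyp4a10 passed in all 6 fits without 1 library, Cyp2a22 in 5, Cyp4a14 in 4, and Acot3, Cyp2b13 and Atp6v0d2 in 2. Genes of families with close copies, such as Hsd3b5, Selenbp2 and the Cyp genes, may share reads with them and are uncertain for that reason.

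**Figure D5:**
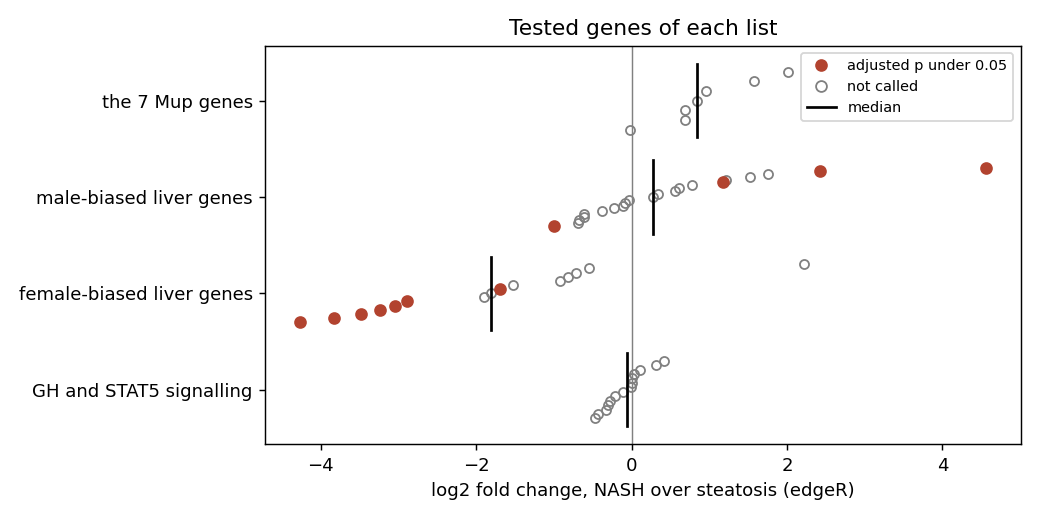
Points give the edgeR log2 fold change, NASH over steatosis, of each tested gene in 4 lists, filled red where the adjusted p was under 0.05 and open otherwise, with a black line at each median. The Mup median is 0.85 with 0 called, the male-biased median 0.28, the female-biased median -1.80 with 7 called, and the growth hormone median -0.06.

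Among 9 tested lipocalins outside the family, Ptgds, a prostaglandin synthase, rose (log2 fold change 3.98, adjusted p = 0.00554) and Rbp4, the retinol carrier of plasma, fell (-1.05, adjusted p = 0.0459). Ptgds passed in all 6 fits without 1 library and Rbp4 in 0. Of 26 abundant secreted proteins of hepatocytes 0 rose and 3 fell (Apoe, Apoh and Rbp4), with a median of -0.26. Without 1 library, Apoe passed in 1 of 6 fits, and Apoh, like Rbp4, in 0. Alb, serum albumin, had -0.40 (adjusted p = 0.445) and Ttr, transthyretin, -0.54 (adjusted p = 0.237). All defining hepatocyte markers were detected and 0 of 10 were called, with a summed level of 9343 to 12751 CPM in NASH and 11249 to 13806 CPM in steatosis. Markers of sinusoidal endothelium summed to 156 to 210 CPM in NASH and 104 to 138 CPM in steatosis, and those of stellate cells and matrix to 44.5 to 60.1 CPM in NASH and 65.3 to 79.8 CPM in steatosis. Macrophage markers summed to 66.2 to 115 CPM in NASH and 81.3 to 104 CPM in steatosis, and cholangiocyte markers to 21.4 to 35.9 CPM in NASH and 33.9 to 53.9 CPM in steatosis. Lymphocyte and neutrophil markers came to 1.81 to 3.13 CPM in NASH and 2.09 to 3.66 CPM in steatosis. Of these lists 1 gene was called, the matrix gene Dcn, lower in NASH, and it passed in 0 of 6 fits without 1 library. No marker was at 0 in all libraries, and their part in the Mup values was not tested. In bulk liver, a different number of hepatocytes and a different amount of Mup RNA per hepatocyte cannot be told apart.

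Outside the family, the 5 genes whose log2(CPM + 1) followed the summed Mup level most closely over 6 libraries were Coq8b, Arih1, Lama3, Cir1 and Slc36a4, with Pearson correlations of 0.982 to 0.993 among 11350 genes compared. Without NASH 3 and steatosis 3, the libraries farthest from the median, these were 0.738, 0.194, 0.449, 0.618 and 0.837 over 4 libraries, so the likeness rests on those libraries, and 0 of the 5 were called. Within the family, log2 CPM of Mup7 and Mup15 correlated at 0.998 over the 6 libraries, and Mup17 and Mup20 at 0.293, the lowest of 21 pairs. These are descriptions of 6 points that share NASH 3 and, among near-identical copies, reads.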

How the data were processed

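Polyadenylated RNA of mouse liver was sequenced as paired 150 bp reads, per the labels' protocols. The genome build is GRCm38 (mm10) and the tools listed are TopHat2 and HTSeq with no version, per the submitters' processing notes. The authors deposited raw counts of reads per gene for each library, whole numbers that were not normalized. No annotation release or strand setting was found in the labels. Symbols came from GENCODE M21 and matched 37607 of 39179 identifiers.

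In R 4.3.3, edgeR 4.0.16 tested 11375 genes left by its default filter (quasi-likelihood test, TMM scaling, Benjamini-Hochberg over all tested genes, call at an adjusted p under 0.05). SE values were derived from the fold change and the F statistic, an approximation. TMM factors ran from 0.793 to 1.50. Libraries of 1 group differed by at least 34.0 chi-square per degree of freedom, so each counted as 1 sample. Alternatives were DESeq2 1.42.0, limma-voom (limma 3.58.1), other scalings and filters, a replicate block and left-out libraries. Coding sequences were aligned with mafft 7.526 and promoters with Biopython 1.88. The fit was tested on simulated data with 200 changed genes. It recovered 33% of 2-fold changes and 96% of 4-fold changes, and 5.84% of its calls were false. A 2-fold change would thus often be missed with these libraries. The changed genes were drawn at random from the tested genes above a minimum level. Neither shared reads nor a library apart from its group, as NASH 3 is, was simulated. These rates are therefore not rates for the Mup genes, and Mup17, at a log2 fold change of 2.01 (SE 0.53), was not called.

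The 7 genes and all lists were chosen with earlier results of these data known. Genes named are the 7, other Mup genes by count, from each non-marker list the called genes and those of smallest p, 6 genes whatever their result (Ghr, Stat5b, Zhx2, Hnf4a, Alb and Ttr), and the 5 genes most like the summed level. Some tested genes are counted but not reported by name here.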

Additional observations from a re-analysis of the deposited data

How the results depend on the processing

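The number of genes called over all tested was 548, and it came to 851 with DESeq2, 1447 with no filter on low counts, 36 in the 4 libraries without NASH 3 and steatosis 2, and 114 to 468 with 1 library left out. The number of the 7 Mup genes called was 0 in the main fit. It was 1 with library sizes taken outside mitochondrial genes and rRNA-like loci without TMM, where 401 of 11375 genes were called. With no filter it was 3, where 1447 of 19803 genes were called. With 1 library left out it was 0 to 1, the 1 being without NASH 2, where 201 of 11715 genes were called. Mup17 passed with the other library size (2.12, adjusted p = 0.0433), with no filter (1.98) and without NASH 2 (2.40), and ranged from 1.12 to 2.43 over left-out libraries. In the 4 libraries it was 1.01 (adjusted p = 0.311). With no filter Mup7 (0.92) and Mup11 (1.55) passed as well. In that fit the SE of the 7 genes ran only from 0.27 (Mup21) to 0.30 (Mup11). In the main fit it was 0.44 for Mup7 and 0.61 for Mup11, at nearly the same fold changes. The passes with no filter therefore rest on the smaller SE. The other library size moved the median of all genes to 0.12 and the split of calls to 179 higher and 222 lower, against 169 and 379. Mup20 turned positive with DESeq2's size factors in edgeR (0.0015) and with the other library size (0.083), and without NASH 1 (0.29), NASH 2 (0.063) or steatosis 1 (0.055), within a range of -0.47 to 0.29. Mup15 was -0.0048 in the 4 libraries. The other left-out ranges were 0.38 to 0.88 for Mup3, 0.20 to 1.28 for Mup7, 0.29 to 2.01 for Mup11, 0.09 to 1.17 for Mup15 and 0.34 to 1.014 for Mup21. The log2 ratio of the summed Mup share was 1.08, with 0.38 to 1.33 over left-out libraries and 0.38 without NASH 3. The causes of these shifts were not tested. Same-numbered libraries deviated together at correlations of only 0.03, -0.03 and 0.07, and 2 of 6 libraries correlated best with their own number. No pairing by number was seen, but so few libraries cannot show that there is none. With the replicate block 466 genes and 0 of the 7 were called, and Mup17 was 1.74 (adjusted p = 0.0909). Mup21, at 37 to 80 counts in NASH and 51 to 72 in steatosis, is the gene most limited by depth.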

Other observations

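Ratios within a library set the central copies against each other without any scaling. Mup11 counts over Mup15 counts were 1.23, 1.15 and 2.08 in NASH, against 0.936, 1.40 and 0.830 in steatosis, so Mup11 exceeded Mup15 in all 3 NASH libraries and in steatosis 2. Mup7 counts over Mup15 counts were 1.06, 1.05 and 1.06 in NASH, against 0.972, 0.981 and 1.008 in steatosis. Mup21 counts over Mup3 counts, both from genes with no shared window, were 0.00690, 0.0111 and 0.0101 in NASH, against 0.00941, 0.00919 and 0.0101 in steatosis, and overlapped. These ratios were chosen after the values had been seen, and those among central copies compare rows of counts that may share reads.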
